A study of Mus musculus with 12 samples.

Results

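The mitochondrial solute carriers move metabolites, nucleotides, amino acids and protons across the inner membrane of the mitochondrion. Their messenger RNA was followed in the mouse heart over diabetes and inhibition of monoamine oxidase (MAO). The genes were chosen by name: every array gene called *Slc25a* with a number, except *Slc25a20*, together with the uncoupling proteins *Ucp1*, *Ucp2* and *Ucp3* and both subunits of the pyruvate carrier, *Mpc1* and *Mpc2*. This gave 51 of the 37074 gene names on the array, measured by 112 of its 56605 probes. The rule itself uses names and no measured value.

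Heart muscle came from 12 male C57BL6/J mice of 5 months, 3 in each of 4 groups, with 1 array per mouse. Control mice (C) received neither agent, and C + P mice received pargyline, an inhibitor of MAO, at 50 mg/kg/day for 12 weeks. Diabetic mice (D) had been given streptozotocin, which destroys the insulin-producing cells of the pancreas, at 50 mg/kg/day by intraperitoneal injection on 5 days, and D + P mice received streptozotocin followed by the same course of pargyline. Mice counted as diabetic from a blood glucose of 17 mM. The model is therefore one of insulin loss, and the tissue was not separated into cell types. The groups without pargyline (C and D) shared 1 slide and the groups with pargyline (C + P and D + P) shared another, so a difference of C + P from C, or of D + P from D, may be of the slide or of pargyline, which cannot be told apart. A shift that a slide adds equally to its arrays cancels in the 2 diabetes differences (D from C, and D + P from C + P), in their average and in the interaction. On both slides the diabetic mice occupied the second row, and the effects of row and of diabetes cannot be told apart either.

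Carriers of this family share a fold of membrane helices around a central binding site that opens alternately to either side of the inner membrane. In the heart the adenine nucleotide carriers export the ATP made by oxidative phosphorylation, the phosphate carrier brings in its other substrate, and the aspartate-glutamate and oxoglutarate carriers pass reducing equivalents from the cytosol as parts of the malate-aspartate shuttle. The uncoupling proteins belong to the same family. *Ucp1* makes heat in brown fat, while *Ucp3* is found in skeletal muscle and heart and accompanies the use of fatty acids. The pyruvate carrier is a separate, smaller family that admits the product of glycolysis.

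RefSeq promoter windows (assembly GRCm38.p6, 250 bases before to 50 bases after a transcript start) were at hand for 40 of the 51 genes, in 51 windows. The cAMP response element TGACGTCA, searched on both strands, was the only one of the 4 complete elements searched that occurred in them. It is shown because its 2 carriers include *Slc25a25*, the carrier with the smallest p in the averaged diabetes contrast when the brightest probe of each gene is compared. The *Slc25a25* element begins 150 bases before 1 of the 3 annotated starts of that gene (chr2:32424198-32424227, minus strand) and that of *Slc25a36*, a pyrimidine nucleotide carrier, 161 bases before its start (chr9:97111184-97111213, minus strand). Both are printed 5′ to 3′ along the gene with the element in capitals.
Slc25a25: tctgcaagcagTGACGTCAgtcctgatctt
Slc25a36: tgcgaacctcgTGACGTCAcgcggcctaag
The element was present in 2 of 51 windows of the carriers (3.92%) and in 1.79% of all 32851 windows. Its first letters TGACG alone, which also lie within the complete element, were present in 31.4% of the carrier windows and in 20.8% of all windows. The site TCAAGGTCA of the estrogen-related receptors, the palindrome of the nuclear respiratory factors that GCGCA begins, and the direct repeat of AGGTCA with 1 base between that peroxisome proliferator receptors bind, were present in 0.423%, 0.971% and 0.0396% of all windows and in 0 of the carrier windows. A match describes these letters in this window and no site of binding.

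Expression is given as log2 of the background-corrected spot intensity after quantile normalisation, which sets the intensities of all arrays to 1 common distribution. It compares 1 probe between arrays and sets no level of 1 gene against another. Where a gene had several probes, the brightest, by its mean over the 12 arrays, stands for it. Of the 51 genes, 33 were well above background on all 12 arrays, 8 on some and 10 on none. To be tested, a probe had to give a positive and significant signal, by the flag of the scanner software, on no fewer than 50% of the arrays in each group, and 42 carriers passed. *Slc25a18* and *Slc25a48* passed although they were among the 10. The 9 left untested were *Ucp1*, *Slc25a2*, *Slc25a10*, *Slc25a15*, *Slc25a21*, *Slc25a31*, *Slc25a41*, *Slc25a53* and *Slc25a54*, of which *Slc25a31*, the adenine nucleotide carrier of the testis, was well above background on 1 array and the others on 0. On each array 23556 to 29231 of 59305 spots were well above background and 0 were saturated. Replicate 1 of every group and also replicate 3 of D + P had a spread between repeated spots that the scanner software marked as out of range. All 6 markers of cardiomyocytes were well above background on 12 arrays, and their summed intensity was 641511 to 671369 in C, 625054 to 733548 in C + P, 593654 to 714383 in D and 620067 to 711753 in D + P. In whole tissue, fewer cells of a type and less RNA per cell cannot be told apart.

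No carrier passed the test of difference: 0 of the 42 tested passed an adjusted p of 0.05 (limma, Benjamini-Hochberg over all 30857 tested probes) in any of 6 contrasts. For diabetes averaged over pargyline, 4 carriers were higher and 2 lower at an unadjusted p under 0.05. Among all probes 0.107% passed the adjusted threshold in this contrast, while 5.93% were higher and 5.46% lower at the unadjusted one. The 6 were *Ucp3*, *Slc25a30*, *Slc25a43* and *Slc25a48* on the higher side and *Slc25a25* and *Slc25a29* on the lower. Of the 42 differences 21 were above 0 and 21 below, with a median of 0.001 on the log2 scale beside -0.009 for all probes, and 25 were above 0 after scaling each array on its 75th percentile instead. The whole 95% interval lay within 0.5 of 0 on the log2 scale for 20 carriers and within 1 for 37. The C arrays differed least among themselves, with a median SD over the carriers of 0.12, while this median was 0.24 for the C + P arrays, 0.21 for the D arrays and 0.20 for the D + P arrays. Over all probes these medians were 0.17, 0.28, 0.34 and 0.28.

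**Figure D1:**
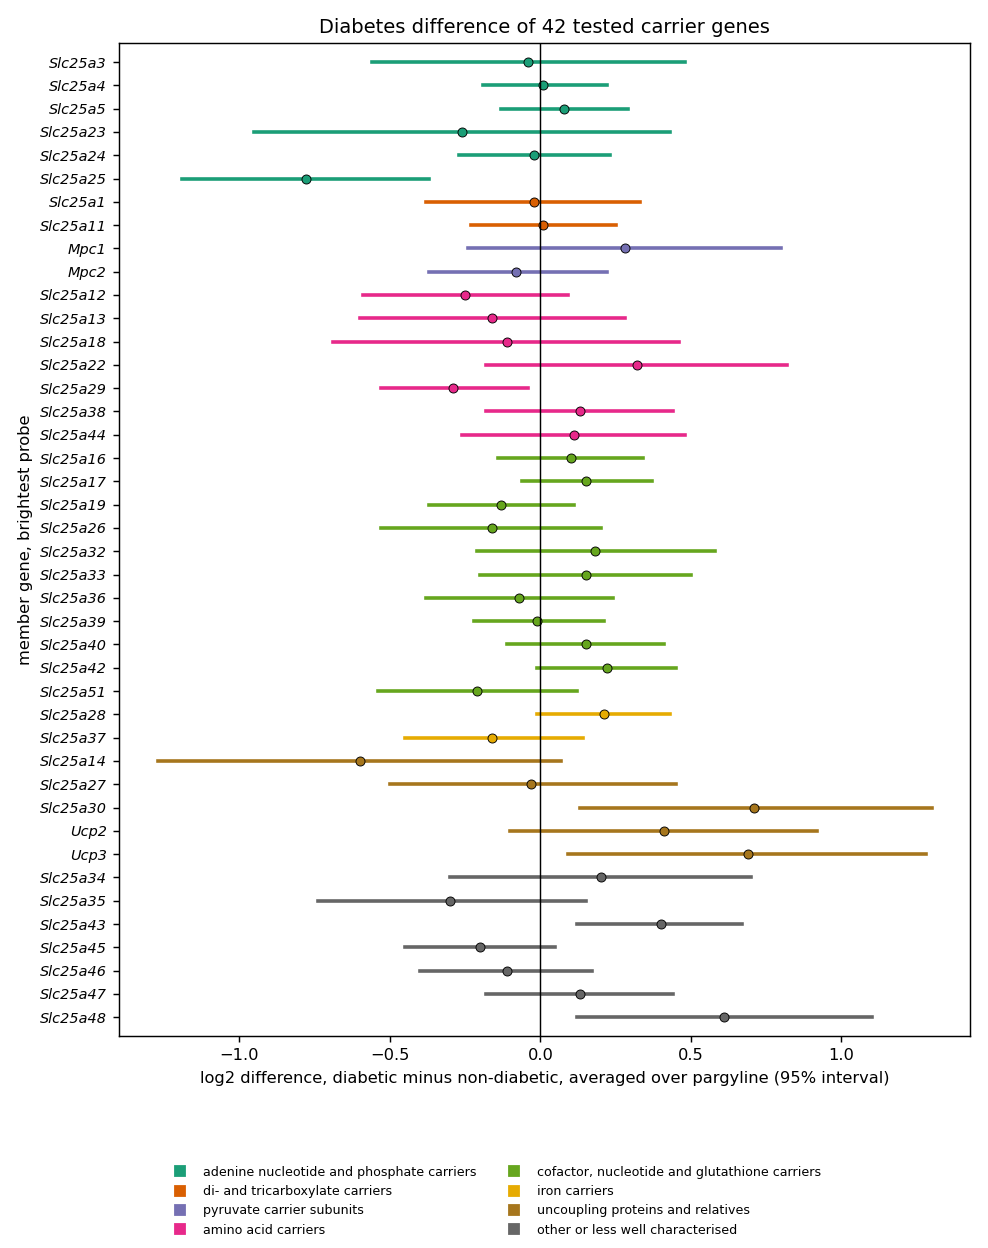
The log2 difference of diabetic from non-diabetic hearts, averaged over pargyline, for the 42 tested carriers (horizontal axis), with points at the estimate, lines for the 95% interval and colours for the role of the carrier. The intervals of *Slc25a25* and *Slc25a29* lie below 0, those of *Slc25a30*, *Ucp3*, *Slc25a43* and *Slc25a48* lie above 0, and the other 36 include 0. The *Slc25a48* probe was not well above background on any array, and each interval is taken without adjustment for the number of genes.

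**Figure D2:**
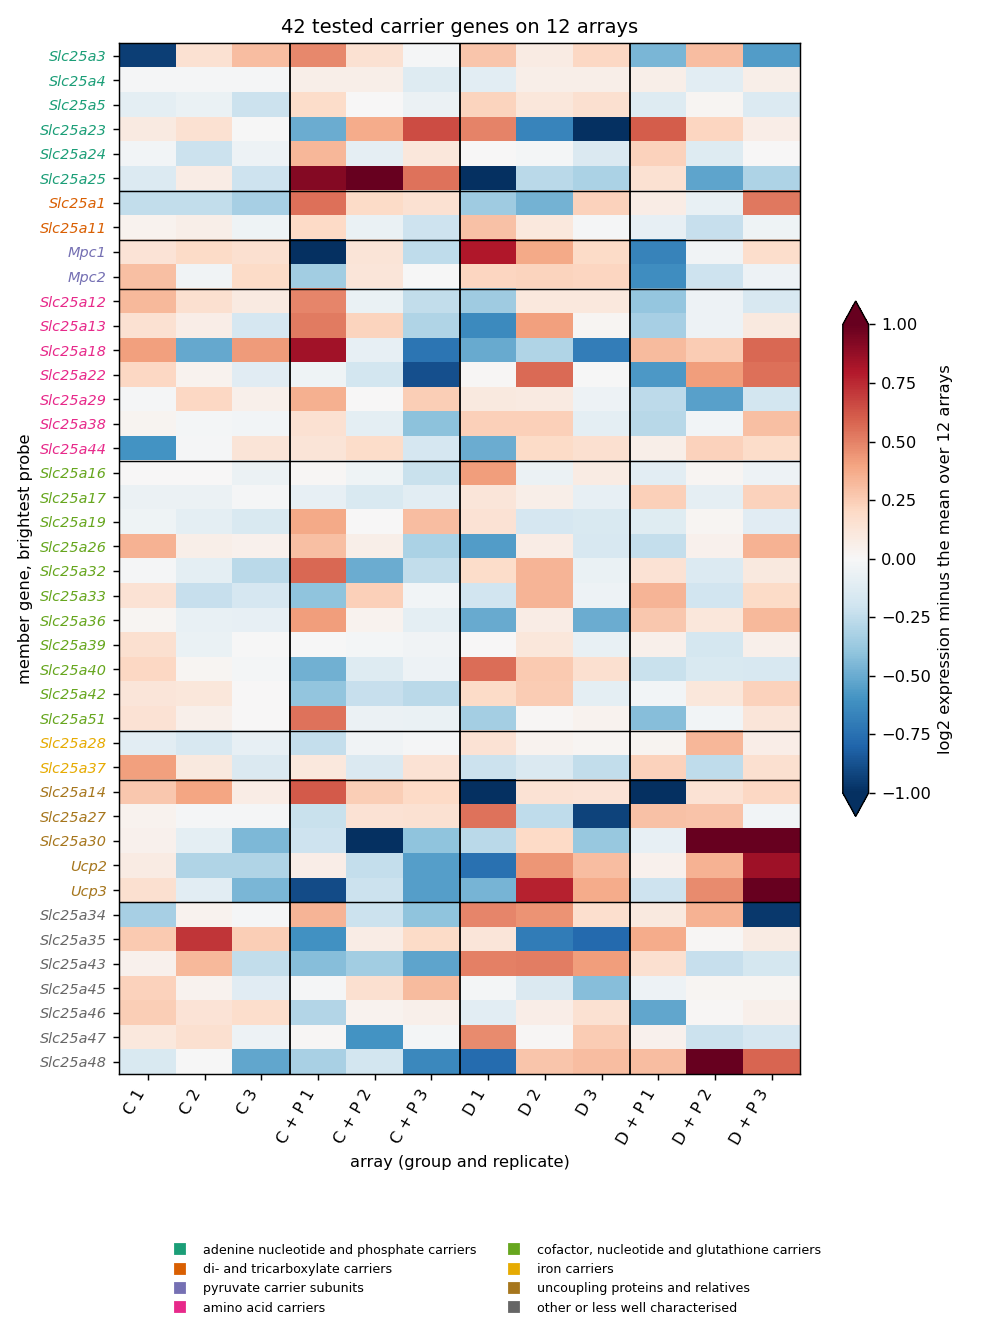
Log2 expression of the 42 tested carriers (rows, grouped by role) on the 12 arrays (columns) as the difference from the mean of the gene over all arrays, with the colour scale limited at 1 in both directions. *Slc25a25* is red (higher than its mean) on the 3 C + P arrays and *Slc25a43* on the 3 D arrays, whereas *Slc25a30* is dark red on D + P replicates 2 and 3 only, and most rows show no block of one colour.

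The adenine nucleotide and phosphate carriers held 8 genes, of which 6 were tested. *Slc25a4* encodes the main adenine nucleotide carrier of heart and skeletal muscle, and its brightest probe (mm9, chromosome 8, 47292828 to 47292887) was among the brightest on the array. Its log2 expression was 17.61, 17.61 and 17.61 in C, 17.68, 17.68 and 17.49 in C + P, 17.51, 17.68 and 17.68 in D and 17.68, 17.51 and 17.68 in D + P, here and below in the order of replicates 1 to 3. These values are almost fixed by the method, because quantile normalisation gives each rank the same value on every array and this probe took rank 2 to 6 of all tested probes on all 12. Scaled on the 75th percentile of each array instead, the same spots read 17.31, 17.32 and 17.46 in C, 18.03, 17.86 and 17.48 in C + P, 17.63, 17.23 and 17.91 in D and 18.01, 17.45 and 17.89 in D + P. The averaged diabetes difference was 0.01 (SE 0.09) with quantile normalisation and 0.11 (SE 0.16, adjusted p 0.829) with the other scaling, and that of C + P from C 0.01 (SE 0.13) and 0.43 (SE 0.23, adjusted p 0.999). A second *Slc25a4* probe, at ranks 28 to 103, differed by 0.16 (SE 0.13, adjusted p 0.675) and by 0.16 (SE 0.15, adjusted p 0.708) in the averaged contrast. The small spread of the brightest probe is therefore no measure of how constant the transcript was.

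**Figure D3:**
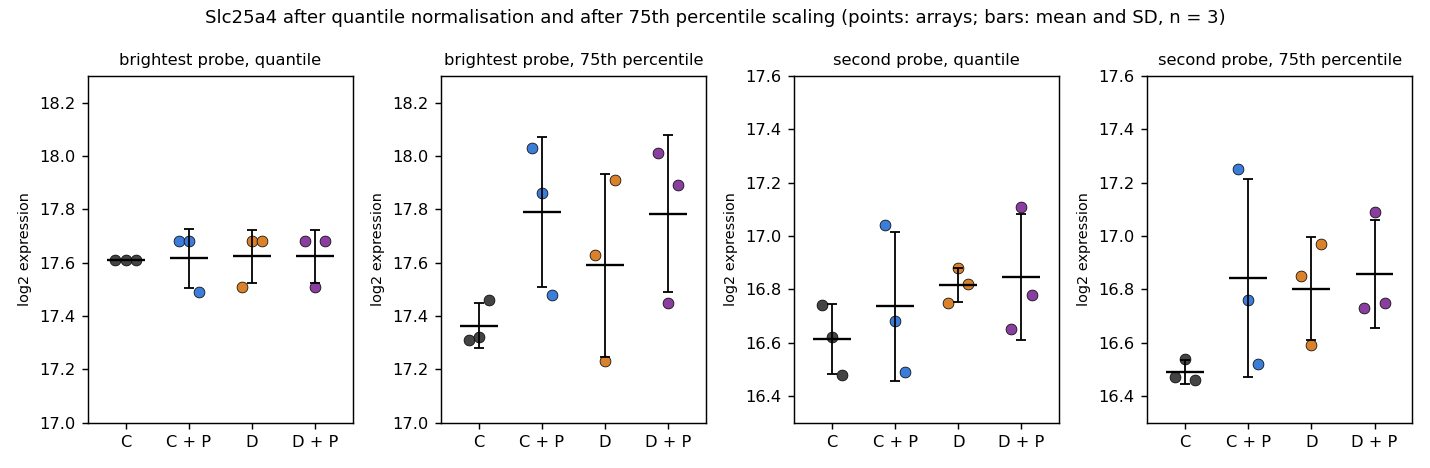
Log2 expression of both *Slc25a4* probes by group after quantile normalisation and after scaling on the 75th percentile of each array (points: arrays, bars: mean and SD, n = 3, vertical axes cut and of equal height). The brightest probe spans 17.49 to 17.68 in the first panel and 17.23 to 18.03 in the second, and the second probe spans 16.48 to 17.11 and 16.46 to 17.25.

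*Slc25a5* encodes the adenine nucleotide carrier of most other tissues. It read 12.04, 12.07 and 11.92 in C, 12.32, 12.14 and 12.08 in C + P, 12.36, 12.25 and 12.30 in D and 12.01, 12.16 and 12.00 in D + P. All D and all C + P arrays thus exceeded all C arrays, while all D + P arrays lay below all D arrays. The differences were 0.29 for D from C (SE 0.13, p 0.0525, adjusted p 0.463) and -0.12 for D + P from C + P (SE 0.13, adjusted p 0.852). With scaling on the 75th percentile the first was 0.43 (SE 0.16, p 0.0207, adjusted p 0.364). *Slc25a3* is the phosphate carrier and read 13.67, 14.76 and 14.92 in C, 15.09, 14.76 and 14.60 in C + P, 14.89, 14.69 and 14.82 in D and 14.15, 14.92 and 14.05 in D + P. C replicate 1 was over 1 log2 unit below the other C arrays, the groups overlapped, and the averaged difference was -0.04 with a 95% interval from -0.56 to 0.48.

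*Slc25a25* belongs to the calcium-regulated carriers that exchange ATP with magnesium for phosphate and so set the adenine nucleotide content of the matrix. Its brightest probe (chromosome 2, 32270275 to 32270334) read 6.79, 7.00 and 6.72 in C, 7.85, 8.08 and 7.47 in C + P, 5.86, 6.66 and 6.61 in D and 7.08, 6.40 and 6.62 in D + P. Every C + P array was above every other array, and every D array was below every C array. The averaged diabetes difference was -0.78 (SE 0.19, p 0.00161, adjusted p 0.174), the smallest p of the brightest probe of any carrier in that contrast. It was -0.46 without pargyline (SE 0.26, p 0.110, adjusted p 0.533) and -1.10 with it (SE 0.26, p 0.00163, adjusted p 0.288), and the interaction, which is the second of these minus the first, was -0.64 (SE 0.37, p 0.113, adjusted p 0.742). C + P exceeded C by 0.97 (SE 0.26, p 0.00382, adjusted p 0.819) and D + P exceeded D by 0.32 (SE 0.26, adjusted p 0.604).

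Both other tested *Slc25a25* probes lie close to the brightest, in the same short stretch of the chromosome, so they are not independent measurements. The second (chromosome 2, 32270611 to 32270670) averaged 5.68 over the C arrays, 6.68 over C + P, 5.55 over D and 5.05 over D + P, and was well above background on 0 of 3 D + P arrays. The D + P level was below that of C + P by at least 2.65-fold (adjusted p 0.207), with the dim arrays set to no less than the lowest signal well above background on each. The third (chromosome 2, 32270490 to 32270549) had means of 4.67, 6.01, 5.11 and 4.63 in the same order and was well above background on 3 of 3 C + P arrays but 0 of 3 C arrays. Its C + P level exceeded that of C by at least 2.13-fold (adjusted p 0.691). The mean of C + P was thus the highest in all 3 probes. Their D arrays differed from C by -0.46 in the brightest and by -0.12 in the second. The third ran the other way, with a D mean above the C mean, but was well above background on 1 D array and 0 C arrays, so no fold is given. The order of the C, D and D + P means was not the same in the 3 probes. The interaction was larger in the second probe, -1.51 (SE 0.48, p 0.0101, adjusted p 0.649), and in the third, -1.82 (SE 0.47, p 0.00291, adjusted p 0.565), than in the brightest, in probes that were not well above background on any array of 1 group each.

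*Fos*, an immediate early gene of stimulated cells, also stood highest in C + P. Its mean ± SD over 3 arrays was 4.78 ± 0.93 for C, 9.20 ± 0.23 for C + P, 4.15 ± 0.80 for D and 5.12 ± 0.32 for D + P, and it was well above background on 1, 3, 0 and 0 arrays of these groups. Its part in the *Slc25a25* values was not tested. The related carriers *Slc25a23* and *Slc25a24* had averaged differences of -0.26 (p 0.427) and -0.02 (p 0.872).

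**Figure D4:**
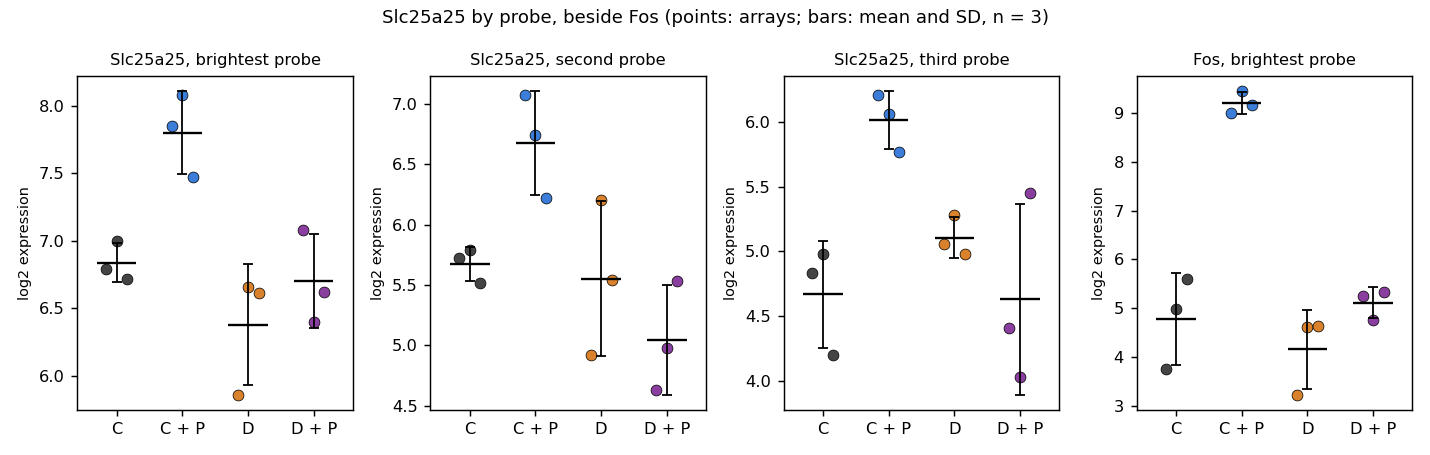
Log2 expression of the 3 tested *Slc25a25* probes and of *Fos* by group (points: arrays, bars: mean and SD, n = 3, each vertical axis with its own range). In each panel the C + P arrays are above those of the other groups, and the distances among C, D and D + P differ from probe to probe.

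Among the di- and tricarboxylate carriers, *Slc25a1* for citrate and *Slc25a11* for oxoglutarate and malate were tested. *Slc25a11* read 14.96, 14.98 and 14.88 in C, 15.12, 14.86 and 14.72 in C + P, 15.22, 15.03 and 14.91 in D and 14.84, 14.69 and 14.88 in D + P. Its averaged difference of 0.01 had a 95% interval from -0.23 to 0.25, and that of *Slc25a1* was -0.02 (p 0.879). In C + P against C *Slc25a1* was 0.57 higher, with all C + P arrays, at 7.01 to 7.41, above all C arrays, at 6.52 to 6.61.

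The pyruvate carrier needs both of its subunits. *Mpc1* read 14.74, 14.79 and 14.76 in C, 13.40, 14.73 and 14.35 in C + P, 15.40, 14.98 and 14.79 in D and 13.93, 14.57 and 14.78 in D + P. All D arrays were at or above the highest C array at this rounding, and the difference was 0.29 (SE 0.33, adjusted p 0.755). With scaling on the 75th percentile it was 0.50 (SE 0.31, adjusted p 0.527). *Mpc2* read 14.77, 14.43 and 14.66 in C, 14.12, 14.59 and 14.46 in C + P, 14.68, 14.69 and 14.68 in D and 13.85, 14.26 and 14.42 in D + P. For the brightest probe of both subunits the arrays of D + P lay below those of D without overlap, by 0.63 (SE 0.33, p 0.0841) for *Mpc1* and by 0.51 (SE 0.19, p 0.0216, adjusted p 0.293) for *Mpc2*, in a contrast where slide and pargyline cannot be told apart. The other tested probes differed in the opposite direction, by 0.06 (SE 0.30) and 0.48 (SE 0.39) for *Mpc1* and by 0.55 (SE 0.27, adjusted p 0.403) for *Mpc2*, which read 6.41, 6.25 and 6.18 in D and 6.90, 6.60 and 6.98 in D + P. With scaling on the 75th percentile the brightest probes gave -0.79 (SE 0.31, adjusted p 0.300) for *Mpc1* and -0.67 (SE 0.19, adjusted p 0.215) for *Mpc2*. The others then gave -0.09 and 0.55 for *Mpc1* and 0.64 for *Mpc2*. The averaged diabetes differences of the brightest probes were 0.28 (95% interval -0.24 to 0.80) and -0.08 (95% interval -0.37 to 0.22).

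Of 9 amino acid carriers 7 were tested. *Slc25a12* and *Slc25a13*, the aspartate-glutamate carriers of the malate-aspartate shuttle, had averaged differences of -0.25 (SE 0.15, p 0.130) and -0.16 (SE 0.20, p 0.436). *Slc25a12* read 12.45, 12.29 and 12.22 in C, 12.62, 12.06 and 11.88 in C + P, 11.77, 12.23 and 12.23 in D and 11.74, 12.08 and 11.97 in D + P, and *Slc25a13* 11.57, 11.49 and 11.25 in C, 11.94, 11.64 and 11.12 in C + P, 10.78, 11.83 and 11.44 in D and 11.09, 11.37 and 11.52 in D + P. The diabetic arrays of *Slc25a12* were the lower ones on average, but they overlapped the others.

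*Slc25a29*, which carries basic amino acids, read 7.28, 7.50 and 7.34 in C, 7.65, 7.30 and 7.54 in C + P, 7.39, 7.38 and 7.24 in D and 7.03, 6.75 and 7.11 in D + P (chromosome 12, 110064375 to 110064434). All D + P arrays lay below every array of the other groups, which overlapped. The difference of D + P from C + P was -0.53 (SE 0.16, p 0.00631, adjusted p 0.455) and that of D from C was -0.04 (SE 0.16, adjusted p 0.942). The averaged difference was -0.29 (SE 0.11, p 0.0264, adjusted p 0.382) and the interaction -0.49 (SE 0.22, p 0.0492, adjusted p 0.710). *Slc25a22*, a glutamate carrier, had the highest averaged difference of this group, 0.32 (p 0.183).

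All 11 carriers of cofactors, nucleotides and glutathione were well above background on all 12 arrays. Their averaged differences ran from -0.21 to 0.22, and 0 had an unadjusted p under 0.05. The upper end belonged to *Slc25a42*, the mitochondrial carrier of coenzyme A, which read 12.20, 12.19 and 12.08 in C, 11.68, 11.85 and 11.81 in C + P, 12.27, 12.33 and 11.98 in D and 12.05, 12.19 and 12.31 in D + P (chromosome 8, 72708298 to 72708357). The 3 C + P arrays were the lowest of the 12. D + P therefore exceeded C + P by 0.41 (SE 0.15, p 0.0188, adjusted p 0.582), whereas D differed from C by 0.03 (SE 0.15, adjusted p 0.950), and C + P from C by -0.38 (SE 0.15, p 0.0256, adjusted p 0.9998).

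*Slc25a40*, a glutathione carrier, read 6.90, 6.71 and 6.67 in C, 6.21, 6.56 and 6.64 in C + P, 7.25, 6.95 and 6.85 in D and 6.47, 6.54 and 6.53 in D + P. All D + P arrays lay below all D arrays, with a difference of -0.50 (SE 0.17, p 0.0124, adjusted p 0.257). *Slc25a36* went the other way between the same groups, with 8.79, 8.70 and 8.69 in C, 9.19, 8.81 and 8.68 in C + P, 8.27, 8.85 and 8.28 in D and 9.04, 8.89 and 9.10 in D + P. D + P exceeded D by 0.55 (SE 0.20, p 0.0185, adjusted p 0.283), while the C arrays overlapped those of D and the C + P arrays overlapped those of every other group. The other glutathione carrier, *Slc25a39*, had an averaged difference of -0.01 and a 95% interval from -0.22 to 0.21.

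The iron carriers *Slc25a28* and *Slc25a37* supply iron for haem and iron-sulphur clusters, and the latter is abundant in developing red cells. Their averaged differences were 0.21 (p 0.0601) and -0.16 (p 0.266). All D arrays of *Slc25a28*, at 10.11 to 10.24, were above the C arrays, at 9.93 to 10.01. On the other slide its D + P arrays, at 10.12 to 10.42, were above the C + P arrays, at 9.85 to 10.08.

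The uncoupling proteins and their relatives held the largest averaged differences on the higher side among the 42. *Ucp1* was not well above background on any array, at 3.53, 3.37 and 3.35 in C, 3.13, 3.08 and 3.17 in C + P, 3.15, 3.33 and 3.38 in D and 3.21, 3.25 and 3.01 in D + P, so it gave no measure of a difference. The adipocyte markers *Adipoq*, *Plin1* and *Elovl3* were also well above background on no array, whereas the summed intensity of all 6 adipocyte markers was 4999 to 5245 in C, 5224 to 5799 in C + P, 6134 to 7153 in D and 5923 to 7088 in D + P. One gene, *Cidea*, gave 93.1% to 97.8% of this sum on each array, so the ranges describe *Cidea* and not the list.

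*Ucp3* (chromosome 7, 107630399 to 107630458) read 8.16, 7.89 and 7.54 in C, 7.10, 7.78 and 7.45 in C + P, 7.53, 8.77 and 8.37 in D and 7.79, 8.47 and 9.12 in D + P. The D arrays overlapped those of C, since D replicate 1 was below every C array, while the D + P arrays were all above those of C + P. The difference was 0.36 without pargyline (SE 0.38, adjusted p 0.738), 1.01 with it (SE 0.38, p 0.0231, adjusted p 0.608) and 0.69 on average (SE 0.27, p 0.0281, adjusted p 0.388). The interaction was 0.65 (SE 0.54, adjusted p 0.799), so the 2 differences were not shown to be unequal. On the same arrays *Angptl4* and *Pdk4*, which respond to fatty acids, differed by 2.82 (SE 0.30, adjusted p 0.0126) and 1.74 (SE 0.31, adjusted p 0.0766) on average.

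*Ucp2*, which is expressed in many tissues and strongly in leukocytes, read 7.04, 6.66 and 6.66 in C, 7.03, 6.72 and 6.41 in C + P, 6.21, 7.40 and 7.27 in D and 7.00, 7.31 and 7.81 in D + P. Again D replicate 1 was below every C array and the other D arrays were above them all. The averaged difference was 0.41 (SE 0.23, p 0.102, adjusted p 0.532). The 6 leukocyte markers summed to 36334 to 41732 in C, 28305 to 35124 in C + P, 20555 to 40754 in D and 31846 to 36714 in D + P. The brightest *Itgam* probe gave 72.9% to 86.6% of this sum, at 15.01, 14.95 and 14.83 in C and 15.06, 14.28 and 13.87 in D. The brightest probe of every one of these markers had a lower mean in D than in C, from 11.77 to 11.09 for *Ptprc* and from 7.95 to 7.93 for *Cd14* at the extremes. Second probes of *Itgam* (5.45 in C and 6.37 in D) and of *Csf1r* (7.94 and 8.21) had a higher one. The part of these markers in *Ucp2* was not tested.

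*Slc25a30*, a carrier close to the uncoupling proteins in sequence, read 5.87, 5.73 and 5.38 in C, 5.62, 4.81 and 5.43 in C + P, 5.56, 6.03 and 5.45 in D and 5.75, 7.11 and 7.21 in D + P (chromosome 14, 76161603 to 76161662). It was well above background on 3 C arrays, 1 of C + P, 1 of D and 2 of D + P. D + P replicates 2 and 3 stood over 1 log2 unit above all other arrays, and replicate 1 did not. The difference of D + P from C + P was 1.40 (SE 0.37, p 0.00338, adjusted p 0.377), against a C + P group well above background on 1 of 3 arrays, that of D from C 0.02 (SE 0.37, adjusted p 0.986), the average 0.71 (SE 0.26, p 0.0214, adjusted p 0.362) and the interaction 1.38 (SE 0.53, p 0.0248, adjusted p 0.689). The remaining relatives, *Slc25a14* and *Slc25a27*, had averaged differences of -0.60 (p 0.0746) and -0.03 (p 0.906). For *Slc25a14* the difference rested on D replicate 1, at 6.21, and D + P replicate 1, at 6.39, since the other 10 arrays lay between 7.59 and 8.13.

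The last group holds carriers whose substrate is less well established, 9 genes of which 7 were tested. *Slc25a43* (chromosome X, 34297894 to 34315494) read 5.70, 5.98 and 5.41 in C, 5.23, 5.31 and 5.13 in C + P, 6.16, 6.17 and 6.08 in D and 5.82, 5.43 and 5.48 in D + P. Diabetic arrays exceeded the non-diabetic arrays of their slide in both pairs of groups without overlap, and pargyline arrays lay below those without pargyline in both. The diabetes differences were 0.45 (SE 0.18, p 0.0284, adjusted p 0.426) and 0.35 (SE 0.18, p 0.0724, adjusted p 0.688), with an average of 0.40 (SE 0.12, p 0.00879, adjusted p 0.277). Those of pargyline were -0.47 (SE 0.18, p 0.0228, adjusted p 0.9998) and -0.56 (SE 0.18, p 0.00882, adjusted p 0.241), where slide and pargyline cannot be told apart. The probe was well above background on 3 C, 1 C + P, 2 D and 1 D + P arrays.

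*Slc25a35* (chromosome 11, 68785020 to 68785079) read 6.28, 6.73 and 6.26 in C, 5.41, 6.09 and 6.21 in C + P, 6.14, 5.32 and 5.24 in D and 6.39, 6.03 and 6.10 in D + P. All D and all C + P arrays were below all C arrays, and the D + P arrays overlapped those of C. D differed from C by -0.86 (SE 0.29, p 0.0125, adjusted p 0.360) and D + P from C + P by 0.27 (SE 0.29, adjusted p 0.851), with an interaction of 1.13 (SE 0.41, p 0.0183, adjusted p 0.678), the smallest p of any brightest probe in that contrast. The interaction rested on 1 of 3 tested probes, since the others gave -0.07 (SE 0.55) and -0.25 (SE 0.64), the last on a probe well above background on 0 D and 0 D + P arrays. The accession of the brightest probe has no RefSeq match. Some unmatched probes of other carriers were also lowest in D, with means of 6.20, 5.19 and 6.24 in C, D and D + P for one of *Slc25a51* and 7.70, 7.05 and 7.53 for one of *Mpc1*. Others were highest in D, with 7.05, 7.21 and 7.02 for the brightest of *Slc25a16* and 7.87, 7.98 and 7.48 for one of *Slc25a12*. All of these were chosen after their values were seen, and the share of unmatched probes lowest in D was not counted. *Slc25a48* was well above background on no array, although its signal passed the test of being positive and significant. It read 3.59, 3.74 and 3.22 in C, 3.42, 3.56 and 3.10 in C + P, 2.97, 4.02 and 4.05 in D and 4.05, 4.86 and 4.32 in D + P, and no fold is given for it (p 0.0199 on average, adjusted p 0.355).

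**Figure D5:**
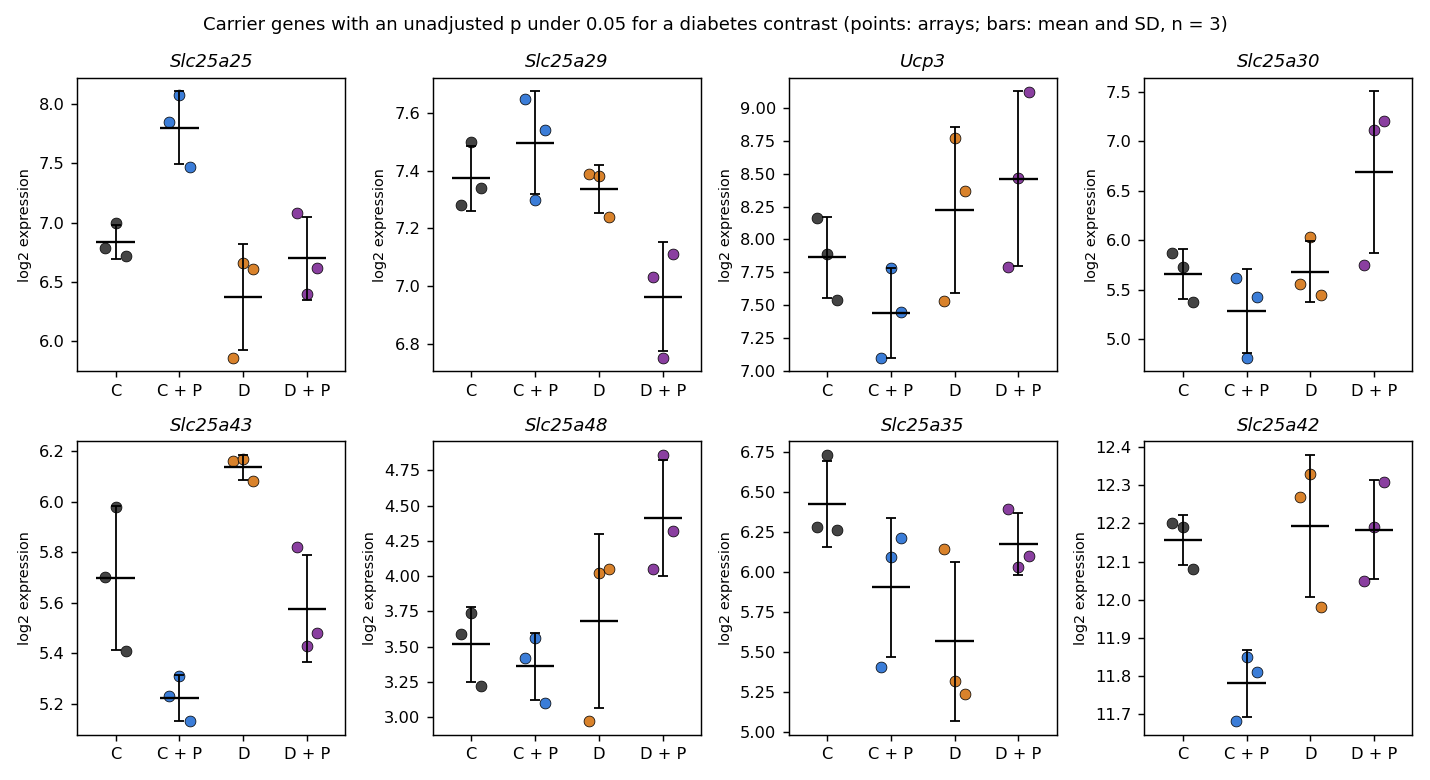
Log2 expression by group of the 8 carriers with an unadjusted p under 0.05 in either diabetes contrast or in their average (points: arrays, bars: mean and SD, n = 3, each vertical axis with its own range). C + P stands apart for *Slc25a25* and *Slc25a42* and D + P for *Slc25a29*, 2 of the 3 D + P arrays of *Slc25a30* are above all others, and the 2 diabetes differences of *Slc25a43* are alike in size.

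The single contrasts read as follows across the 42 carriers. In D against C, 1 carrier was higher and 1 lower at an unadjusted p under 0.05, against 5.13% and 5.66% of all probes. The groups did not overlap for 5 higher and 2 lower carriers, against 11.9% and 10.4% of all probes. In D + P against C + P, 4 were higher and 2 lower (3.67% and 3.79% of all probes), and 6 higher and 2 lower did not overlap (7.31% and 6.57%). In C + P against C, 2 were higher and 2 lower (1.95% and 2.48%), with 4 higher and 7 lower not overlapping (7.35% and 8.01%). In D + P against D, 4 were higher and 4 lower (6.85% and 6.43%), with 2 higher and 7 lower not overlapping (7.92% and 9.12%). For the interaction, 2 were higher and 1 lower (4.12% and 2.91%). At the adjusted threshold of 0.05 the shares of all probes were 0.00648%, 0.0454%, 0.0324%, 0% and 0.00648% in these 5 contrasts. Contrasts that have a group in common share its arrays. An exact permutation test of 3 arrays against 3 could not give a two-sided p below 0.1, so the spread was pooled over groups and probes.

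Probes of 1 gene did not always run together. Of 28 carriers with several tested probes, 18 had averaged diabetes differences of both signs among them. Among the carriers described above, *Mpc1* gave 0.28 by its brightest probe but -0.25 (SE 0.21) and -0.52 (SE 0.28) by its other tested probes, *Slc25a3* -0.04 and 0.21 (SE 0.23), and *Slc25a42* 0.22 and -0.14 (SE 0.33). Both *Ucp2* probes were on the higher side, at 0.41 and 0.26 (SE 0.27), while *Ucp3*, *Slc25a29*, *Slc25a43* and *Slc25a5* rested on a single tested probe each. For 6 carriers another probe, but not the brightest, had an unadjusted p under 0.05. The smallest of these p-values were those of dim probes. One for *Slc25a32*, a folate carrier, had a p of 0.00144 (adjusted p 0.169) and was well above background on 1 array, while its brightest probe gave 0.18 (p 0.327). One for *Slc25a35* had a p of 0.00199 (adjusted p 0.186) and was well above background on 3 C, 2 C + P, 0 D and 0 D + P arrays, so that its D + P level was below that of C + P by at least 1.55-fold. One for *Slc25a40* had a p of 0.00219 (adjusted p 0.194) and was well above background on no array. *Slc25a12* also had probes that differed. One in another part of the gene (chromosome 2, 71165603 to 71165662) read 7.08, 7.19 and 7.01 in C, 6.83, 6.90 and 7.53 in C + P, 6.48, 6.66 and 5.37 in D and 7.44, 7.37 and 7.22 in D + P. All D arrays of that probe lay below every other array, with -0.93 for D from C (SE 0.31, p 0.0130, adjusted p 0.364) and 1.18 for D + P from D (SE 0.31, p 0.00324, adjusted p 0.195), where the brightest probe gave -0.25 and -0.14. These 4 probes were chosen after their values were seen.

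Beside the carriers, 37 genes work with them: enzymes of the malate-aspartate and glycerol phosphate shuttles, the carnitine system, outer membrane channels, the calcium uniporter, sideroflexins, the carrier-like outer membrane proteins *Mtch1* and *Mtch2* and the TIM22 machinery that inserts carriers into the inner membrane. All 37 were tested and 0 passed an adjusted p of 0.05 in diabetes averaged over pargyline (limma), with 4 higher and 1 lower at an unadjusted p under 0.05 (5.93% and 5.46% of all probes), a median difference of 0.001 and a range from -0.44 to 0.60. These 5 were named after their values were seen. The carnitine system held 3 of the 4. *Cpt1a*, which makes acylcarnitine at the outer membrane, read 9.38, 9.26 and 9.12 in C, 8.18, 9.24 and 8.99 in C + P, 9.28, 9.84 and 9.68 in D and 9.28, 9.97 and 9.71 in D + P, with an averaged difference of 0.60 (SE 0.20, p 0.0127, adjusted p 0.316). *Slc25a20*, the carnitine-acylcarnitine carrier, differed by 0.51 (SE 0.22, p 0.0430, adjusted p 0.420) and *Cpt1b* by 0.22 (SE 0.10, p 0.0461). The fourth was *Timm10*, a chaperone of carrier import, at 0.35 (SE 0.13, p 0.0190), and the lower one *Sfxn5*, a sideroflexin, at -0.44 (SE 0.15, p 0.0148). For *Sfxn5* the difference was -0.77 for D from C (SE 0.21, p 0.00427, adjusted p 0.315) and -0.10 for D + P from C + P (SE 0.21). Its interaction was 0.67 (SE 0.30, p 0.0498, adjusted p 0.710), so these differences were not shown to be unequal after adjustment. The 7 shuttle enzymes, with *Got1*, *Got2*, *Mdh1* and *Mdh2* among them, ran from -0.15 to 0.28 and the 3 outer membrane channels from -0.04 to 0.07, with 0 at an unadjusted p under 0.05 in either list in this average. In the single contrasts the shuttle enzymes spread more. *Gpd2*, the mitochondrial glycerol phosphate dehydrogenase, was 0.80 higher in D than C (SE 0.32, p 0.0304, adjusted p 0.428) and differed by -0.98 for D + P from D (SE 0.32, p 0.0116, adjusted p 0.254), with an interaction of -1.19 (SE 0.45, p 0.0244, adjusted p 0.686). In D + P against D, 3 of the 7 were lower at an unadjusted p under 0.05, *Mdh1* and *Gpd1l* beside *Gpd2*, with 6.43% of all probes lower. Slide and pargyline cannot be told apart there, and these enzymes were named after their values were seen. *Gpd2* was well above background on 1 D + P array. The other *Mdh1* probes averaged 14.33 in D and 14.06 in D + P, and 9.30 and 10.17. A second *Gpd1l* probe averaged 6.00 and 5.97. The brightest *Mdh1* probe averaged 15.99 in C and 15.57 in C + P.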

How the data were processed

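The authors labelled 200 ng of total RNA of each mouse with Cy3 and used single-channel Agilent arrays. The deposited scanner files hold spot intensity on a linear scale, background-subtracted and detrended within each array by Feature Extraction, with other columns of 0 or 1 flags per spot. The version of grid placement in the file headers is 12.0.0.7, and the methods name another version for the software. A deposited series table holds intensity that the authors quantile normalised, for 47757 spots, and served as an alternative. It lists no fold changes or p-values.

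From the scanner files, intensity was log2 transformed, quantile normalised between the 12 arrays after control spots and outlier spots had been dropped, and averaged over repeated spots. Of the values of tested probes, 2.04% were not positive and significant and were kept. Each probe was fitted with limma 3.58.1 (R 4.3.3) as 4 group means, with 8 residual and 2.62 prior degrees of freedom and a prior SD of 0.29, and two-sided p-values were adjusted over all 30857 tested probes. The program was tested on simulated data. Figures were drawn in Python 3.11.15 with matplotlib 3.10.9, pandas 2.3.3 and numpy 2.4.6. Probe coordinates are those of the files (mm9), and exon, intron or UTR are not given there. RefSeq matched 87 of the 112 probes by accession, and 0 names changed. The brightest probes of *Slc25a16*, *Slc25a18*, *Slc25a23*, *Slc25a30*, *Slc25a35* and *Slc25a36* had no match and keep the name in the file. The precision is limited by the number of arrays, 3 per group, from separate mice.

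The genes, role lists and partner genes were chosen with earlier results of these data known. Values on each array are given for carriers with an unadjusted p under 0.05 in a diabetes contrast, for the 3 smallest p-values in each pargyline contrast and in the interaction, and, whatever their values, for *Ucp1* to *Ucp3*, *Mpc1*, *Mpc2*, *Slc25a3*, *Slc25a4*, *Slc25a5*, *Slc25a11*, *Slc25a12* and *Slc25a13*. Values on each array of other genes were chosen after they were seen. In all, 27 alternatives were run. The additive slide term, and which values of the other scaling are shown beside the main ones, were chosen after seeing the data.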

Additional observations from a re-analysis of the deposited data

Results flagged for a closer look

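*Slc25a5* differed in sign between the pargyline contrasts. All C + P arrays were above all C arrays, by 0.17 on average (SE 0.13), and all D + P arrays were below all D arrays, by -0.25 on average (SE 0.13). The difference between them, which is the interaction, was -0.42 (SE 0.19, p 0.0509, adjusted p 0.710, limma), and a shift that a slide adds to all its arrays cancels in it. After scaling on the 75th percentile of each array the first was 0.22 (SE 0.16), the second -0.42 (SE 0.16, p 0.0217, adjusted p 0.289) and the interaction -0.65 (SE 0.22, p 0.0152, adjusted p 0.623).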

How the results depend on the processing

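Each difference that chose a carrier by the rule given above kept its direction under the 24 to 26 alternatives that apply to it. For other differences, such as that of *Mpc2* in D + P against D, where the probes differ in sign, only the scaling on the 75th percentile was compared. Over all 252 differences of the 42 carriers, scaling on the 75th percentile turned 18, each at most 0.16 in size, among them *Slc25a30* in D against C (0.02 to -0.04), *Slc25a3* (-0.04 to 0.01), *Slc25a39* (-0.01 to 0.04) and *Slc25a18* (-0.11 to 0.22) in the averaged contrast. Sizes moved by over 1.5 times mainly with normexp background, whose offset of 50 before log2 shrinks the differences of dim probes: averaged, *Slc25a43* then gave 0.10, *Slc25a30* 0.35, *Ucp3* 0.45 and *Slc25a25* -0.43. In D against C *Slc25a35* gave -0.24 and *Slc25a43* 0.17, in D + P against C + P *Slc25a30* gave 0.73, *Slc25a25* -0.62 and *Slc25a29* -0.30, in C + P against C *Slc25a25* gave 0.52 and *Slc25a43* -0.24, in D + P against D *Slc25a43* gave -0.37 and *Slc25a40* -0.22, and the interactions were 0.76 for *Slc25a30*, 0.46 for *Slc25a35* and -0.15 for *Slc25a29*. With the mean of all tested probes, *Slc25a42* gave -0.17 for C + P less C and 0.10 for D + P less C + P, *Slc25a36* 0.33 in D + P against D (0.32 with array weights, 0.33 without the 5 arrays named below) and the *Slc25a35* interaction 0.27. The averaged *Slc25a30* difference was 1.09 without those 5 arrays. Of the counts, 210 stayed within 1.5 times the value given and 16 moved. The adjusted threshold was crossed by *Slc25a25* only, in 2 contrasts, with array weights, which ran from 0.251 for D replicate 1 to 3.316 for C + P replicate 2: the count of carriers past an adjusted p of 0.05 was then 1 in C + P against C (1.06, adjusted p 0.0288) and 1 in diabetes averaged over pargyline (-0.81, adjusted p 0.0396). Over all alternatives its averaged difference ran from -0.88 to -0.43 and the adjusted p from 0.0396 to 0.407. In the averaged contrast, the 4 higher carriers of unadjusted p under 0.05 became 9 with array weights and 7 without the 5 arrays whose spot spread was out of range. With 1 array left out at a time they were 1 to 7, with 2 without C replicate 3, 1 without D replicate 2, 7 without D + P replicate 1 and 2 without D + P replicate 2. The 2 lower carriers became 4 with array weights, 5 with the mean of all tested probes of a gene, 4 with normexp background, 1 with the slide column as a block and 4 without the 5 arrays, and were 1 to 3 with 1 array left out, with 1 without C replicate 2, C + P replicate 1 or D + P replicate 2. The cause was not tested.

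Replicate numbers did not pair the mice: the correlation of same-numbered deviations over 18 pairs ran from -0.204 to 0.200, with 4 above 0.1, against 8 of 36 for different numbers. With the replicate number as a block the averaged counts stayed at 4 and 2, and *Slc25a25* at -0.78 (adjusted p 0.275), and no call changed. Slide as a random block could not be fitted, since each group lies on 1 slide. The methods' t-test covered the 4 pairwise contrasts only, the arrays of 1 slide alone the 2 diabetes contrasts, the additive slide term the averaged contrast, and a filter on signal well above background leaves no value for *Slc25a48*.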
